A study of Gallus gallus with 6 samples.

Results

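Heparan sulfate proteoglycans are core proteins that carry long sulfated sugar chains. The chains bind FGF ligands and help them join their receptors, so a cell's proteoglycans influence how far an FGF spreads and how strongly it acts. Glypicans are held to the cell surface by a lipid anchor, syndecans span the membrane, and enzymes of the Golgi and the cell surface set the sulfate pattern of the chains. In the limb bud these genes act where FGF of the apical ectodermal ridge, Hedgehog and BMP signals meet.

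The response of 10 such genes to FGF2 is described here. They are 5 glypicans (GPC1, GPC3, GPC4, GPC5 and GPC6), 3 syndecans (SDC2, SDC3 and SDC4), the sulfate-removing enzyme SULF1 and the chain-sulfating enzyme NDST1. The genes were grouped by function and selected on these arrays with the FGF2 and PBS values already known, so their differences are a description, and the counts of members past a threshold given below support nothing. Every probe set whose platform symbol was exactly one of the 10 names was taken, which gave 19 probe sets for 9 genes, out of 13009 genes with a probe set of 1 symbol. No probe set carried the symbol SDC4, and this gene is not analysed here. SULF1 had 7 probe sets, GPC1 had 3, GPC4 and SDC2 had 2 each, and the other 5 genes had 1.

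Heparin-coated beads had been soaked in recombinant human FGF2 or, for the control, in phosphate-buffered saline (PBS), and were placed in posterior forelimb bud mesoderm of chick embryos at Hamburger-Hamilton stage 23. Tissue around the bead was taken 24 h later, at stage 25, and its RNA was measured on Chicken Genome arrays of Affymetrix, with 3 FGF2 arrays and 3 PBS arrays. The methods describe pools of RNA from several embryos, prepared on different days, so n counts pools and a p-value measures the spread between pools. Both groups carried a heparin bead, and heparin is itself a close relative of heparan sulfate. Values are log2 levels after the authors' normalization, and a difference of 1 is a doubling. Levels of different probe sets are not compared, because probes differ in affinity.

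GPC3 stood far above its control level around FGF2 beads. This glypican restrains growth, and in mouse it binds Hedgehog ligands. In man its loss causes an overgrowth syndrome with limb and skeletal changes. Its log2 value was 9.54, 9.90 and 9.66 in the FGF2 arrays, against 7.40, 7.14 and 7.87 in the PBS arrays. All FGF2 arrays lay above all PBS arrays, and the gap between the groups was wider than the range within either. The mean was 9.70 ± 0.179 in FGF2 tissue and 7.47 ± 0.370 in PBS tissue (SD, n = 3 each), a log2 difference of 2.23 ± 0.206 (SE) or 4.69-fold. Of the 13009 genes, only 10 had a larger positive difference. Leaving out any 1 array gave a difference of 2.07 to 2.43. GPC3 had a single probe set, so no second one of the same gene can be set beside it. In bulk tissue, more cells that express a gene and more RNA per cell cannot be told apart, which holds for every value below.

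GPC1, a glypican widely present in embryonic tissue and able to bind FGF2, was lower around FGF2 beads in each of its 3 probe sets. Its brightest probe set gave 13.39, 13.27 and 13.49 in the FGF2 arrays, against 13.74, 13.49 and 13.64 in the PBS arrays. The FGF2 values were the lower ones, but only just, since FGF2 replicate 3 and PBS replicate 2 are both 13.49 when rounded. The other 2 probe sets did not overlap. The second gave 13.06, 12.998 and 13.01 in FGF2 arrays, against 13.31, 13.29 and 13.36 in PBS arrays. The third gave 11.47, 11.46 and 11.52 in FGF2 arrays, against 11.74, 11.73 and 11.84 in PBS arrays. The log2 differences of the 3 were -0.24 ± 0.0862, -0.30 ± 0.0314 and -0.29 ± 0.0392 (SE), so the sets gave nearly one size, of 1.18-, 1.23- and 1.22-fold lower. These probe sets read the same 6 RNA pools and are not separate support.

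GPC4, another glypican of the cell surface, differed from PBS tissue by about as much as GPC1. It had values of 11.72, 11.60 and 11.57 in FGF2 arrays, against 11.85, 11.90 and 11.87 in PBS arrays. The PBS arrays were close together, at 11.87 ± 0.0234 against 11.63 ± 0.0820 in FGF2 tissue (SD, n = 3 each), and the groups did not overlap. The difference was -0.24 ± 0.0470 (SE). Its other probe set was between 1.39 and 1.43 in all arrays, below the background limit of 3.57, the 95th percentile of 746 probe sets named after sequences outside the chicken transcript set. In the chicken assembly GRCg7b, GPC4 and GPC3 are adjacent protein-coding genes on chromosome 4, and HS6ST2, a heparan sulfate sulfotransferase, is next to GPC4. Of these 3 neighbours GPC3 was higher, whereas GPC4 and HS6ST2 were lower in every FGF2 array than in any PBS array (HS6ST2 log2 difference -0.17 ± 0.0404 SE).

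GPC5 and GPC6, glypicans that lie near each other on chromosome 1 of that assembly, differed little. GPC5 gave 3.03, 2.96 and 2.98 in FGF2 arrays, against 2.99, 3.05 and 2.998 in PBS arrays. These values are under the background limit, so a change in GPC5 was not measurable with this probe set. GPC6 gave 4.97, 4.87 and 4.99 in FGF2 arrays, against 5.36, 4.64 and 5.24 in PBS arrays. PBS replicate 2 was the lowest of the 6, and the difference of -0.13 ± 0.196 (SE) became -0.35 without that array and 0.0073 without PBS replicate 1, the highest.

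**Figure D1:**
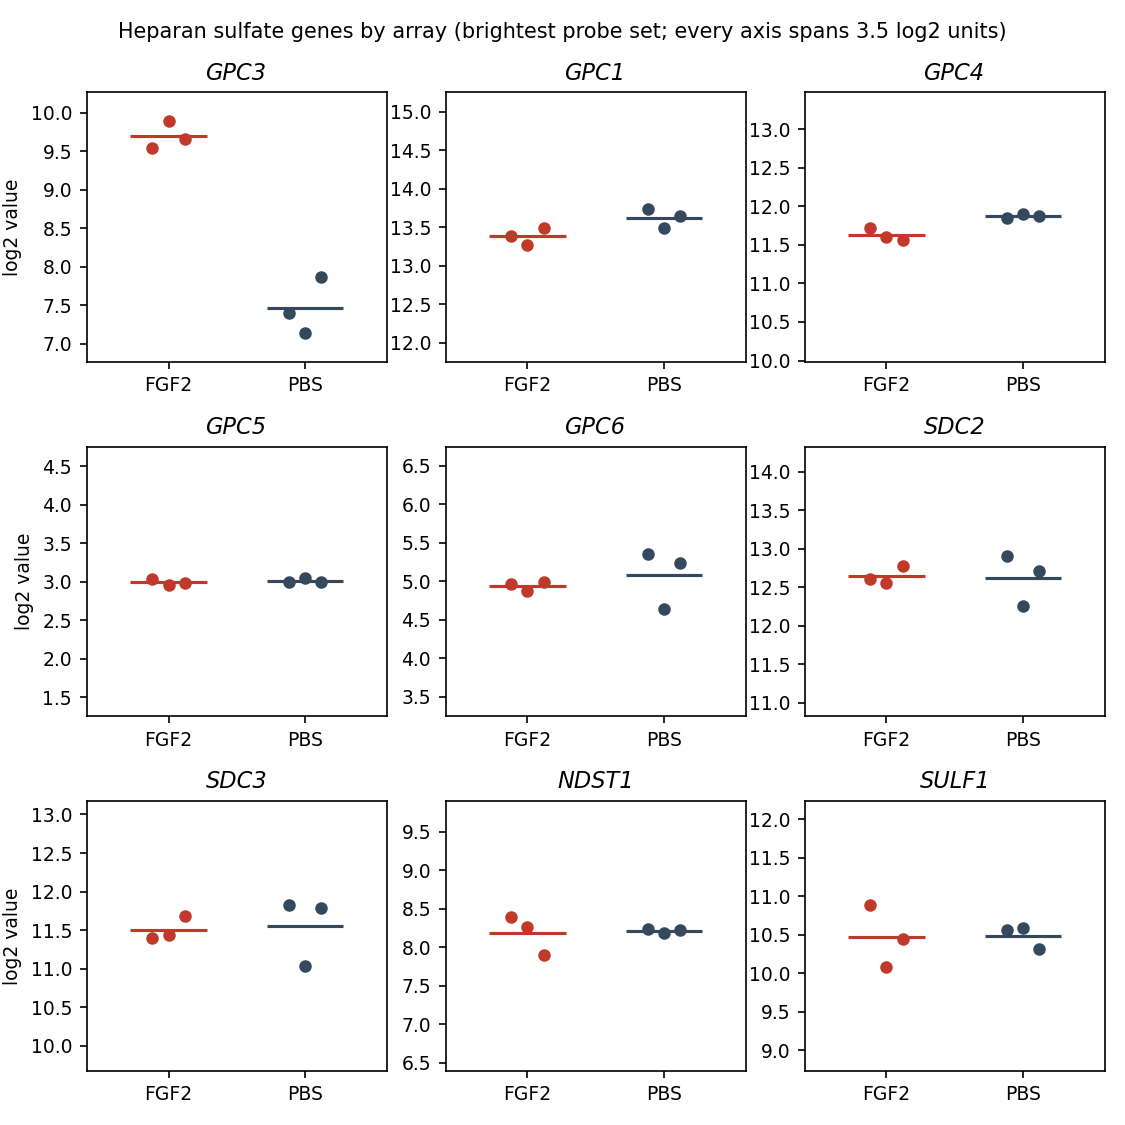
Log2 value of the brightest probe set of each of the 9 measured genes, with 1 point per array, FGF2 left and PBS right, a line at the mean of 3 arrays and the same axis span in all panels. GPC3 is the only panel with a wide gap, at 9.54 to 9.90 in FGF2 arrays against 7.14 to 7.87 in PBS arrays.

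Among the syndecans, SDC2 and SDC3 were at similar levels in both groups. SDC2, a syndecan of mesenchymal cells, gave 12.61, 12.55 and 12.77 in FGF2 arrays, against 12.90, 12.25 and 12.71 in PBS arrays. Its second probe set gave 11.69, 11.81 and 11.99 in FGF2 arrays, against 11.999, 11.39 and 11.84 in PBS arrays. In both sets PBS replicate 2 was the lowest array and PBS replicate 1 the highest, and the FGF2 values lay between them. The log2 differences were 0.022 ± 0.180 and 0.088 ± 0.176 (SE).

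SDC3, known in the chick limb from the condensing mesenchyme before cartilage forms, repeated this order. It gave 11.40, 11.43 and 11.68 in FGF2 arrays, against 11.82, 11.03 and 11.79 in PBS arrays, a difference of -0.044 ± 0.238 (SE). PBS replicate 2 again stood below the rest, and without it the difference was -0.30 for SDC3 and -0.17 for the first SDC2 probe set. Without PBS replicate 1, the highest array, the differences were 0.094 for SDC3 and 0.16 for SDC2. The cartilage markers were low in the same array. Their median deviation from the PBS mean was -0.41 in PBS replicate 2, against 0.40 and 0.047 in the other PBS arrays, and whether this bears on the syndecan values was not tested.

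The 2 enzymes among the members likewise had overlapping groups. NDST1, which starts chain modification by replacing acetyl with sulfate groups, gave 8.40, 8.26 and 7.90 in FGF2 arrays, against 8.24, 8.19 and 8.22 in PBS arrays. FGF2 arrays lay on both sides of the PBS arrays, which were tightly grouped, and the difference was -0.027 ± 0.130 (SE). SULF1, a secreted enzyme that removes sulfate from finished chains and dampens FGF signaling, gave 10.89, 10.08 and 10.45 in FGF2 arrays with its brightest probe set. The PBS arrays gave 10.56, 10.59 and 10.31, and the difference was -0.013 ± 0.217 (SE). FGF2 replicate 1 was the highest FGF2 array in all 7 SULF1 probe sets, whose differences ran from -0.19 to 0.042. The lowest of these sets was under the background limit.

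**Figure D2:**
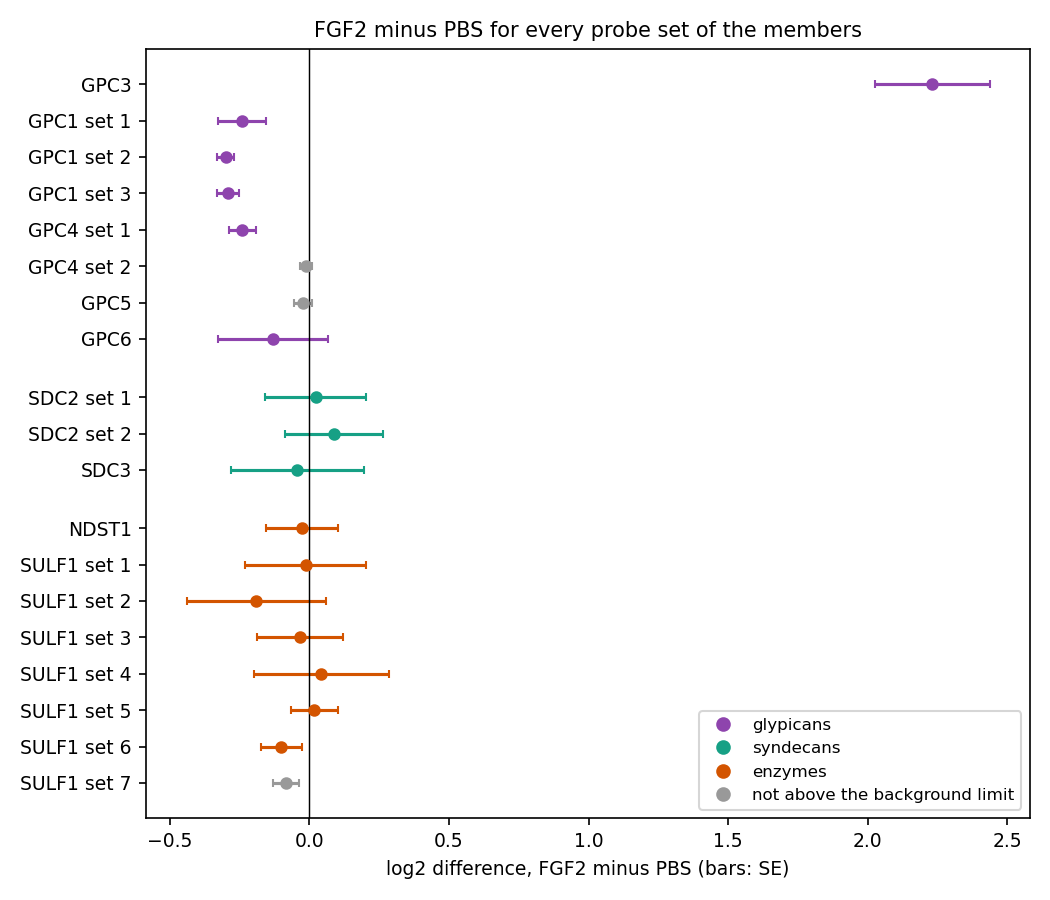
Log2 difference, FGF2 minus PBS, of all 19 probe sets with its moderated SE as a bar, sorted by role and numbered from the brightest set of a gene. GPC3 lies at 2.23 and the 3 GPC1 sets between -0.30 and -0.24, whereas the syndecan and enzyme sets lie between -0.19 and 0.088.

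GPC3 differed from the other members in size. With each gene represented by its brightest probe set, GPC3 and SDC2 had positive differences and the other 7 of 9 genes negative ones. The median was -0.027, against -0.013 over all 13009 genes. The other 8 genes ranged from -0.24 to 0.022. Set against the PBS mean, GPC3 was at 2.07, 2.43 and 2.19 in the FGF2 arrays, against -0.07, -0.33 and 0.40 in the PBS arrays. The median of the other 8 was -0.06, -0.16 and -0.06 in the FGF2 arrays, against 0.10, -0.08 and 0.01 in the PBS arrays. The highest of the 8 in any FGF2 array was SULF1 at 0.40 in FGF2 replicate 1, still well under GPC3 in each FGF2 array. GPC3 exceeded the median of the others by 2.13, 2.59 and 2.25 in the FGF2 arrays.

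All 19 probe sets entered the limma fit across 38439 probe sets, with no filter on low values. None of the 19 passed an adjusted p of 0.05, which 0.0104% of all probe sets passed, and GPC3 was at 0.12. At an unadjusted p under 0.05 there were 5 of 19, namely GPC3, the 3 sets of GPC1 and the bright set of GPC4, where 8.93% of all passed. GPC3 alone among them passed with a variance trend and robust fitting (0.101% of all) and in the fit of the brighter probe sets (0.208% of those). All FGF2 arrays were below all PBS arrays in 4 of the 19 sets, against 5.84% of all, and above in 1, against 6.53%. Since the members were chosen with this contrast known, nothing is read from these counts.

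The wider heparan sulfate machinery was described through 5 lists, with 55 of 63 listed symbols measured by their brightest probe set. None passed an adjusted p of 0.05, which 0.00769% of all genes passed, and 8 passed unadjusted (14.5%, against 12.4% of all genes), 2 higher and 6 lower. The alternative with a variance trend called 0 of them. In all, 36 were lower and 19 higher, so 65.5% were lower against 54.4% of all genes. Groups did not overlap with FGF2 below PBS in 10 of the 55 (18.2%, against 6.84% of all genes) and with FGF2 above PBS in 2 (9.13% of all genes). Among the 10 were HS3ST4, below the background limit, and ARSG, near it, with differences of only -0.029 and -0.021. The lists were fixed with earlier results of these data known, so nothing is read from these counts.

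Of the 10 carriers outside the members 9 were lower and 1 higher, where 54.4% of all genes were lower. The median log2 difference of these carriers was -0.25, against -0.013 over all genes. The 9 include SPOCK3 at -0.0032 and SDC1 at -0.013, which hardly differed between the groups. The lowest adjusted p of the list was 0.363 (limma), and nothing is read from the count of lower genes. SPOCK1, a secreted proteoglycan of the testican family, gave 7.16, 7.88 and 8.43 in FGF2 arrays, against 8.92, 8.28 and 8.60 in PBS arrays (adjusted p = 0.609). Its FGF2 arrays were spread widely and overlapped the PBS arrays. GPC2, a glypican best known from neurons and the neighbour of GPC1 on chromosome 9, gave 8.78, 8.50 and 8.58 in FGF2 arrays, against 8.82, 9.14 and 9.08 in PBS arrays (log2 difference -0.40 ± 0.112 SE, adjusted p = 0.451). Of its other 2 probe sets, both below the background limit, neither separated the groups. AGRN and COL18A1, basement membrane proteoglycans named after their values were seen, gave -0.33 (adjusted p = 0.482) and -0.21 (adjusted p = 0.363) without overlap. HSPG2, also of this list, had overlapping groups, at -0.19 ± 0.191 (SE, adjusted p = 0.65). SDC1, the syndecan of epithelia, gave 11.64, 11.29 and 11.35 in FGF2 arrays, against 11.45, 11.54 and 11.32 in PBS arrays, a difference of -0.013.

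The enzymes that build the chain stayed near their control levels. The 12 genes of linker and chain synthesis, among them the polymerases EXT1 and EXT2, ranged from -0.19 to 0.24 with a median of -0.034. The values furthest from 0 were 0.24 ± 0.0798 (SE, adjusted p = 0.504) for EXTL2, a transferase that can act on the linker, and 0.21 for XYLT2, a xylosyltransferase that starts it. The 8 genes of precursor supply, most of which make or transport the sulfate donor and the sugar precursors, ranged from -0.11 to 0.015. PAPSS2, a synthase of the sulfate donor, and SLC35B2, its Golgi transporter, were at -0.11 and -0.092.

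The 14 modifying enzymes outside the members had a median of -0.031, close to that of the chain builders, and a wider range, -0.71 to 0.54. NDST3, of the same family as NDST1, gave 8.53, 8.24 and 8.55 in FGF2 arrays, against 9.34, 9.06 and 9.05 in PBS arrays. The groups did not overlap, and the difference was -0.71 ± 0.121 (SE, adjusted p = 0.286). Its other 4 probe sets did not give one value, at -0.082, -0.56, -0.65 and 0.063. The sets at -0.56 and -0.65 were also lower in all FGF2 arrays, whereas the groups overlapped in the set at -0.082. The set at 0.063 was close to the background limit, at 3.63 to 3.82. HS3ST1, which adds a rare sulfate needed for antithrombin binding, gave 5.26, 5.46 and 6.18 in FGF2 arrays, against 4.85, 5.17 and 5.27 in PBS arrays (0.54 ± 0.266 SE, adjusted p = 0.638). The FGF2 replicate 3 array supplied most of that difference. HS6ST1, a sulfotransferase named after its values were seen, gave -0.29 ± 0.0704 (SE, adjusted p = 0.379). Both probe sets of HS6ST2 were lower in all FGF2 arrays, by -0.17 and -0.20, and both are of a class that can match several transcripts. HS2ST1 and GLCE of the same list, likewise named afterwards, had overlapping groups, at 0.0096 ± 0.0441 and -0.025 ± 0.0242 (SE). SULF2, the partner of SULF1 and also named afterwards, gave -0.46 and -0.25 in its 2 sets, against a spread of -0.19 to 0.042 for SULF1. Of the list 9 were lower and 5 higher, where 54.4% of all genes were lower. On all arrays 5 of the list were below the background limit, and without them 6 were lower and 3 higher.

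Of the 11 genes of release and breakdown 8 were higher and 3 lower, where 54.4% of all genes were lower. The median of the list was 0.065. HPSE, the heparanase, and IDUA, a lysosomal enzyme, were below the background limit, and without them 6 were higher and 3 lower. NOTUM, a secreted esterase that inactivates Wnt and was first described as an enzyme that frees glypicans from their anchor, gave 8.57, 9.11 and 8.84 in FGF2 arrays, against 8.12, 8.005 and 8.32 in PBS arrays. The groups did not overlap (0.69 ± 0.157 SE, adjusted p = 0.365), nor did they in its dimmer probe set (1.20 ± 0.352 SE, adjusted p = 0.462). In that dimmer set all PBS arrays, at 2.66 to 2.75, and FGF2 replicate 1, at 3.31, were below the background limit. The size of its difference is therefore uncertain. HPSE2, a relative of heparanase that binds the chains without cutting them, gave 0.25 ± 0.281 (SE, adjusted p = 0.654), with PBS replicate 2 low at 7.58. The lysosomal enzymes above the background limit, which take the chains apart, lay between -0.066 and 0.15.

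**Figure D3:**
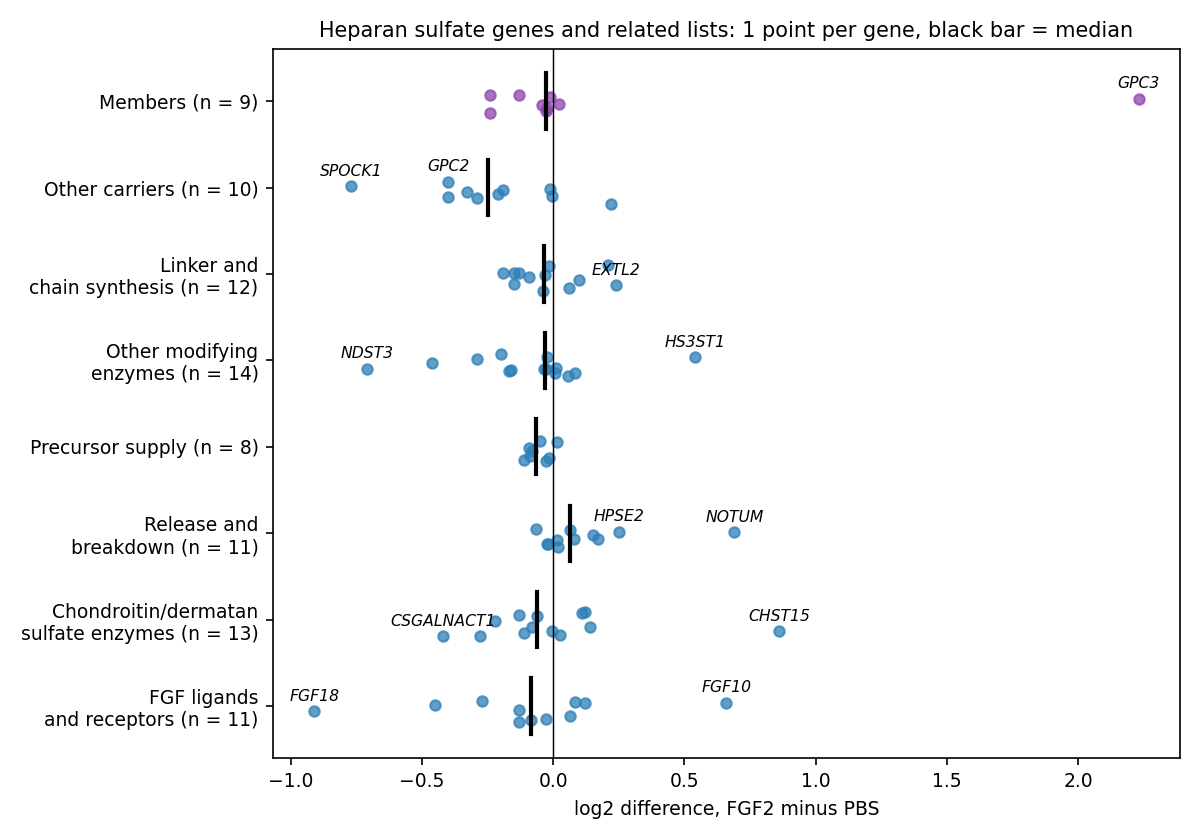
Log2 difference, FGF2 minus PBS, of the members and of 7 lists, with 1 point per gene (brightest probe set), a black bar at the median, and points shifted up or down at random for legibility. Carriers outside the members have the lowest median, at -0.25, and no listed gene comes near the 2.23 of GPC3.

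The genes whose values followed those of GPC3 most closely were sought among 9258 genes with a brightest probe set above the median, after each was centred on its own mean of the 6 arrays. The root mean square distance from GPC3 was 0.151 log2 units for GALNT9, 0.217 for LMO1, 0.240 for MSX1, 0.246 for LHX2 and 0.258 for BHLHE22. GALNT9 gave 10.01, 10.52 and 10.25 in FGF2 arrays, against 7.99, 7.97 and 8.21 in PBS arrays. As with GPC3, FGF2 replicate 2 was its highest array and PBS replicate 3 its highest control. A small distance requires a difference of about the same size, so the differences of these 5 genes, 1.99 to 2.62, follow from how they were found.

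Of the limb markers, PRRX1 of limb mesenchyme was at 13.02 to 13.38 and TBX5 of the forelimb at 11.08 to 11.52, and the hindlimb gene TBX4 was below the background limit. PITX1, also a hindlimb gene, went against the forelimb label, at 6.51 to 7.68 and thus above that limit on all arrays. Macrophage markers were higher in FGF2 tissue in 9 of 9 genes, where 54.4% of all genes were lower. Their summed linear level was 1.56 to 1.84 times the PBS mean in FGF2 arrays, against 0.953 to 1.05 in PBS arrays. CD74 weighs most in that sum, with a PBS mean of 10.39 against 8.26 for CSF1R, the next brightest in PBS tissue. The log2 difference of CD74 was 0.60. MARCO was below the background limit, and C1QA and C1QC gave log2 differences of 3.23 and 1.85. C1QA was below that limit in all PBS arrays and above it in all FGF2 arrays, so the size of its difference is uncertain. C1QC was above the limit on all arrays. Muscle markers were lower in 8 of 9 genes (summed level 0.723 to 0.965, against 0.936 to 1.03) and cartilage markers in 7 of 8 (0.699 to 0.993, against 0.736 to 1.28). Both sums overlapped between groups. All FGF2 arrays were below all PBS arrays in 4 of the 9 muscle genes (6.84% of all genes) and 0 of the 8 cartilage genes. Groups overlapped for TTN (-0.77 ± 0.454 SE), TNNI1 (-0.76 ± 0.333 SE), EPYC (-1.15 ± 0.879 SE) and MATN1 (-1.09 ± 0.501 SE). The genes that were higher were PAX3 of muscle, at 0.13, and SOX9 of cartilage, at 0.23. GPC3 was 9.66 in FGF2 replicate 3, where the muscle and cartilage medians were -0.11 and -0.0017, and 9.54 and 9.90 in FGF2 replicates 1 and 2, where they were -0.57 and -0.81 for muscle and -0.49 and -0.57 for cartilage. The ectoderm, endothelium and erythroid sums overlapped between groups, and their genes furthest from 0 gave 0.26 for WNT7A and 0.19 for KRT14, 0.55 for KDR and 0.16 for SOX18, and 0.11 for HBZ and for HBE. In the nerve list, summed at 1.59 to 2.41 in FGF2 arrays against 0.878 to 1.19 in PBS arrays, STMN2 gave 2.44 and SOX10 -0.78, while TUBB3, NEFL and NEFM gave 0.04, 0.11 and 0.43 with overlapping groups, so STMN2 was the only bright gene of the list that was much higher. In the limb mesenchyme list MEIS2 gave -0.56, and LHX9 gave -1.12 ± 0.864 (SE) with overlapping groups, at 6.08, 4.94 and 5.75 in FGF2 arrays, against 5.99, 8.57 and 5.57 in PBS arrays, where PBS replicate 2 alone was high. The part of macrophages, nerve, muscle or cartilage in the GPC3 value was not tested.

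**Figure D4:**
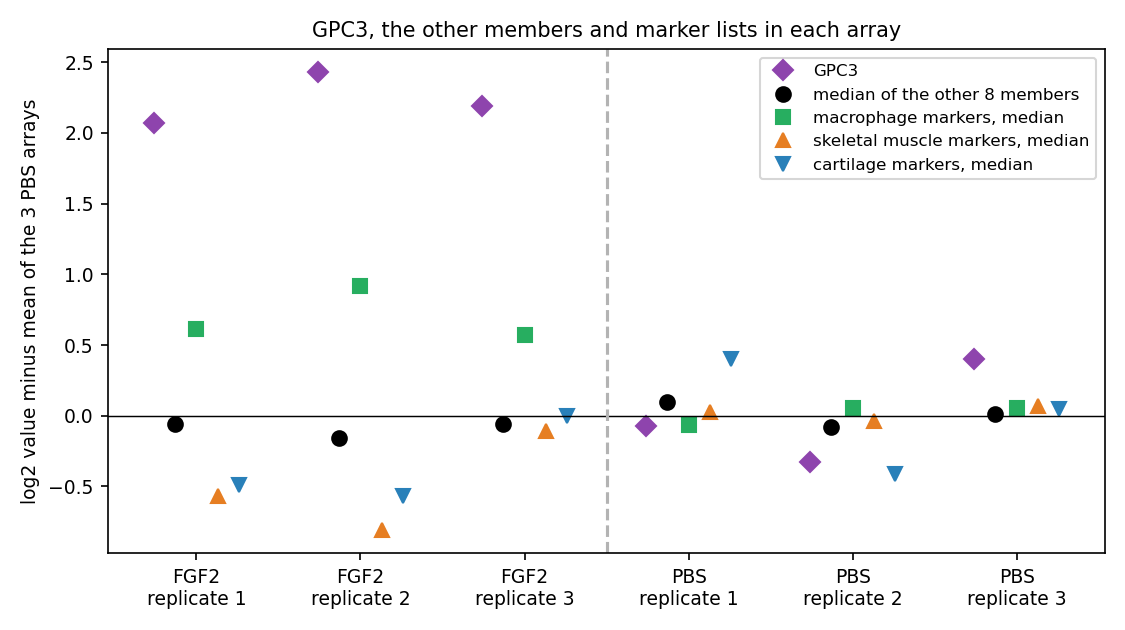
Log2 value minus the mean of the 3 PBS arrays, for GPC3, the median of the other 8 members and the medians of 3 marker lists, in each of the 6 arrays. GPC3 is at 2.07 to 2.43 in all FGF2 arrays, the other members' median is at -0.16 to -0.06 there, and muscle and cartilage medians differ between the FGF2 arrays.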

How the data were processed

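The table deposited by the authors was used as it stood. It holds 1 log2 value per probe set and array, made with Robust Multi-array Averaging (RMA) by the methods and the submitters' processing notes. RMA brings the distributions of the arrays close together, so a true shift common to all genes cannot be seen. The deposited distributions are not identical, and a repeated quantile normalization changed the balance of higher and lower probe sets, as given below. The log base was read from the values, 0.128 to 15.95, and the background model and RMA version are not given in the sources used here. Array medians were 4.754 to 4.813 and correlations between arrays 0.9962 to 0.9988. The number of arrays limits the precision.

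After 96 control probe sets had been left out, FGF2 was compared with PBS over 38439 probe sets with lmFit and eBayes of limma 3.58.1 (R 4.3.3). Tests were two-sided, and p-values were adjusted by Benjamini-Hochberg across the whole table with a threshold of 0.05. The fit was also run on simulated data with known differences, placed in brighter probe sets only. Its noise was independent between probe sets and held no array or day effect, so that run does not show how the fit behaves on these arrays. With 3 arrays against 3 a permutation test cannot go below a p of 0.1. The platform annotation gave 27168 probe sets 1 symbol, 177 several and 11094 none, and only the first were named. A gene is a symbol, for which the probe set brightest on average stood. All 9 measured members matched the RefSeq gene table of GRCg7b by gene identifier, and that table was used only for neighbours, because no genome positions of the probes were used.

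The members and the lists were chosen with earlier results of these data known. By rule the named genes are the members, the 2 listed genes furthest from 0 in each list without a call, and the 5 genes closest to GPC3. Other genes named in the text, such as SDC1, EXT1, HS6ST2 and AGRN, were chosen after their values were seen. The alternatives tried were leaving out each array, a replicate block, a repeated quantile normalization, centring on medians, only the brighter probe sets, a variance trend with robust fitting, no probe sets that can match several transcripts, an unadjusted threshold, and 2 other ways to represent a gene.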

Additional observations from a re-analysis of the deposited data

How the results depend on the processing

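The GPC3 difference was 2.19 after quantile normalization again and 2.22 after centring on medians. A replicate block cannot change a difference in this balanced design. GPC3 has a single probe set, so the other ways to represent a gene could not change its difference either, and all of these returned 2.23. The excess of GPC3 over the median of the other members was 2.25 to 2.28 in these settings. It was 2.17 to 2.47 with each array left out. Of 109 recomputed values for the 9 genes and this excess, 107 moved by less than 1 replicate SD. The exceptions were GPC4 as the mean of its 2 probe sets (-0.125) and GPC5 after quantile normalization again (0.0151), both of which rest on probe sets below the background limit. Many of the 107 could not move. These are the values with a replicate block and those of genes for which another way of representation picks the same probe set. The SD used for the excess was that of GPC3 alone. The count is therefore no measure of stability. SDC2, SDC3, SULF1, NDST1, GPC5 and GPC6 changed sign in at least 1 alternative, and GPC1 and GPC4 in none. The number of probe sets past the adjusted threshold, 4, was 0 to 3 with each array left out (0 without PBS replicate 1, 2 or 3), 7 after quantile normalization again, 39 with the variance trend, 40 of the 19219 brighter probe sets and 3433 at an unadjusted p under 0.05. At that unadjusted threshold 2152 were higher and 1281 lower, against 1483 and 1553 after quantile normalization again. The adjusted threshold was passed by 1 probe set in a fit with a replicate block, and no member was called in it. Deviations from the group means correlated at -0.268, 0.0383 and -0.219 between arrays of one number, so the replicate numbers showed no pairing. Between arrays of different numbers the correlations ran from -0.215 to 0.387, the highest for FGF2 replicate 3 with PBS replicate 1. Next came 0.208 for FGF2 replicate 1 with PBS replicate 2 and 0.193 for FGF2 replicate 2 with PBS replicate 3. Together these highest pairs use each array once. Whether arrays of different numbers shared a day is not given by the labels, and no block other than the replicate number was fitted.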

Other observations

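Chondroitin and dermatan sulfate, the other main sulfated chains of the limb bud, share their linker with heparan sulfate. Of 13 measured genes of their enzymes 8 were lower and 5 higher, where 54.4% of all genes were lower, with a median log2 difference of -0.063. None passed an adjusted p of 0.05 (limma), and 3 of 13 passed an unadjusted p of 0.05, against 12.4% of all genes. CHST15, a sulfotransferase that makes a doubly sulfated unit of chondroitin, gave 9.87, 10.39 and 10.05 in FGF2 arrays, against 9.26, 9.31 and 9.16 in PBS arrays. The groups did not overlap, and the difference was 0.86 ± 0.137 (SE, adjusted p = 0.259). CSGALNACT1, which starts the chondroitin chain, gave -0.42 ± 0.252 (SE, adjusted p = 0.644), with FGF2 replicate 3 at 7.71 and FGF2 replicates 1 and 2 at 7.08 and 6.96.

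Of 11 measured FGF ligands and receptors, the proteins that heparan sulfate brings together, 7 were lower and 4 higher, where 54.4% of all genes were lower. None of the 11 passed an adjusted p of 0.05 (limma). An unadjusted p of 0.05 was passed by 3 of 11, against 12.4% of all genes. FGF4 and FGF8, ligands of the ridge, were below the background limit, and without them 5 were lower and 4 higher. FGF18, a ligand of differentiating skeletal tissue, gave 6.61, 6.30 and 6.85 in FGF2 arrays, against 7.73, 7.28 and 7.49 in PBS arrays (adjusted p = 0.317). FGF10, the mesenchymal ligand that maintains the ridge, gave 8.96, 9.13 and 8.91 in FGF2 arrays, against 8.56, 8.12 and 8.33 in PBS arrays (adjusted p = 0.307). Both separated the groups, in opposite directions.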
